A study of Mus musculus with 12 samples.

Results

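Amino acid transporters of 6 solute carrier families (Slc1, Slc3, Slc7, Slc36, Slc38 and Slc43) were followed while mouse embryonic stem cells left the undifferentiated state. Members were the non-control probes whose gene name in the array files was a numbered gene of these families, with Slc3 limited to Slc3a1 and Slc3a2. This gave 79 probes for 41 genes, of 41174 probes for 28630 genes or other named targets on the array. The files carried 2 versions of the probe annotation, and 70 of the probes were named by both and 9 by only 1 version. Among the 18040 genes bright enough to test were 33 of the 41 members.

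The cells were embryonic stem cells with strain label 129, hybridised as total RNA on 12 arrays, 2 per group. The groups were undifferentiated cells (title LIF, after the cytokine that holds mouse embryonic stem cells undifferentiated), embryoid bodies (EB, floating aggregates) on days 1, 3 and 4, and monolayers (ML, cells spread on a dish) on days 1 and 3. No transgene, mutation or drug was named for any group, and the culture medium and any feeder layer were not given in the sources used here. The 2 arrays of a group were labelled clone 1 and clone 2, and the design text states 2 independent experiments by different people, so p-values measure the spread between such pairs.

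Cells cannot make all amino acids and take them up through membrane carriers that differ in substrate and in driving force. Slc7 light chains are exchangers that reach the surface bound to a heavy chain, Slc3a2 or Slc3a1, while Slc1 and many Slc38 carriers use the sodium gradient. Uptake supplies protein synthesis and the growth regulator mTORC1, and when amino acids run short the factor ATF4 switches on transporter and biosynthesis genes. Mouse embryonic stem cells are known to rely on threonine and glutamine.

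Promoter sequences are shown for the members that carried the core of the C/EBP-ATF response element, the type of site that ATF4 binds, because several genes named further on are known ATF4 targets. The motif searched was TGATGNAA on both strands, in RefSeq windows (build GRCm38) of 300 bases, from 250 before to 50 after each start. It occurred in 3.97% of all 32851 windows and in 4 of 41 windows of 30 member genes. Counted by gene, it occurred in any window of 3 of these 30 genes and of 7 of the 17 listed ATF4 targets outside the transporters. A gene can have several windows, so the counts by gene cannot be compared with the shares of windows. The 3 member genes with a match were Slc7a11, Slc1a4 and Slc7a7, all on the minus strand of the genome. Slc7a7 had matches in 2 overlapping windows, which shared 1 site. Members without a window, among them Slc7a5, Slc7a3, Slc1a5, Slc38a1 and Slc43a3, were not searched. A stretch of 170 bases, 150 before to 20 after the start, is given 5′ to 3′ along the gene, with the motif in capitals on either strand; it lies at chr3:50443594-50443763 for Slc7a11, chr11:20332694-20332863 for Slc1a4 and chr14:54417925-54418094 for Slc7a7.
Slc7a11: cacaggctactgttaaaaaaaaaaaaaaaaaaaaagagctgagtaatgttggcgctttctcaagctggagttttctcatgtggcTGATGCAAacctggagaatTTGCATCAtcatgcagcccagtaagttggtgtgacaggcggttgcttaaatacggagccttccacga
Slc1a4: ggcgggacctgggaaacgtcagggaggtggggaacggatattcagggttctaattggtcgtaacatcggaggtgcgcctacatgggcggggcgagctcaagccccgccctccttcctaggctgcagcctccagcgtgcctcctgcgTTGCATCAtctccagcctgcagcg
Slc7a7: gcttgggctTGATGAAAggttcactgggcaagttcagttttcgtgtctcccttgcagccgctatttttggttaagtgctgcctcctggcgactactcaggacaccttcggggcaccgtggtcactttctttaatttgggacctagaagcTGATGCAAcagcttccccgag
On the arrays Slc1a4 was called in 2 comparisons, Slc7a7 passed no test and Slc7a11 was too dim to test. A match to these letters is a description of the window and not a measured binding site.

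Of 43379 non-control spots, 52.1% to 63.8% were well above background on each array, none was saturated, and each array's 75th percentile of signal lay between 326 and 596 intensity units. All levels below are log2 signal minus that percentile, so 0 is the 75th percentile of an array; levels of different probes cannot be compared. Undifferentiated cells and EB day 4 were each hybridised on a slide of their own and scanned on days of their own, EB day 4 with another scanner. EB days 1 and 3 shared a slide, and ML days 1 and 3 another, all scanned on 1 day. Only the changes from day 1 to day 3 were therefore measured within a slide; in every other comparison slide and group cannot be told apart. The 2 arrays of ML day 3 stood further apart than any other pair, with 18.3% of tested genes at least 2-fold apart, and calls that ended when either was left out are named beside each result. Counts of calls with an array left out are given without the share of all genes in the same fit. They show only that a count depends on the arrays kept. The labels were checked on Pou5f1, a pluripotency factor, which went from a mean of 4.66 ± 0.09 (SD, n = 2) in undifferentiated cells to 1.94 ± 0.43 on EB day 4, and on Fgf5, a marker of the epiblast stage, which went from -2.04 ± 1.35 to 4.72 ± 0.55 on EB day 3 and 4.01 ± 0.52 on ML day 3. Nanog, Klf4, T and Sox17 stood at 1.78, 1.83, 2.10 and 3.22 on EB day 3 and at -0.42, 2.64, 1.67 and 3.56 on EB day 4, against 3.23, 5.76, -4.09 and -2.33 in undifferentiated cells.

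Most transporter genes gave a signal throughout: 24 of the 41 were well above background on both arrays of all 6 groups. Those 24 held all 3 Slc43 genes, 8 of 10 Slc38 genes, 7 of 15 Slc7 genes, 4 of 7 Slc1 genes, Slc3a2 and 1 of 4 Slc36 genes. Another 5 genes were not well above background on any array: the glutamate carrier Slc1a7, the heavy chain Slc3a1, and Slc7a12, Slc7a13 and Slc38a8. Slc7a2, Slc7a11 and Slc38a11 reached background only on single arrays and were not tested either. The heat map of the 33 tested genes shows which cells of the data rest on signals near background.

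**Figure D1:**
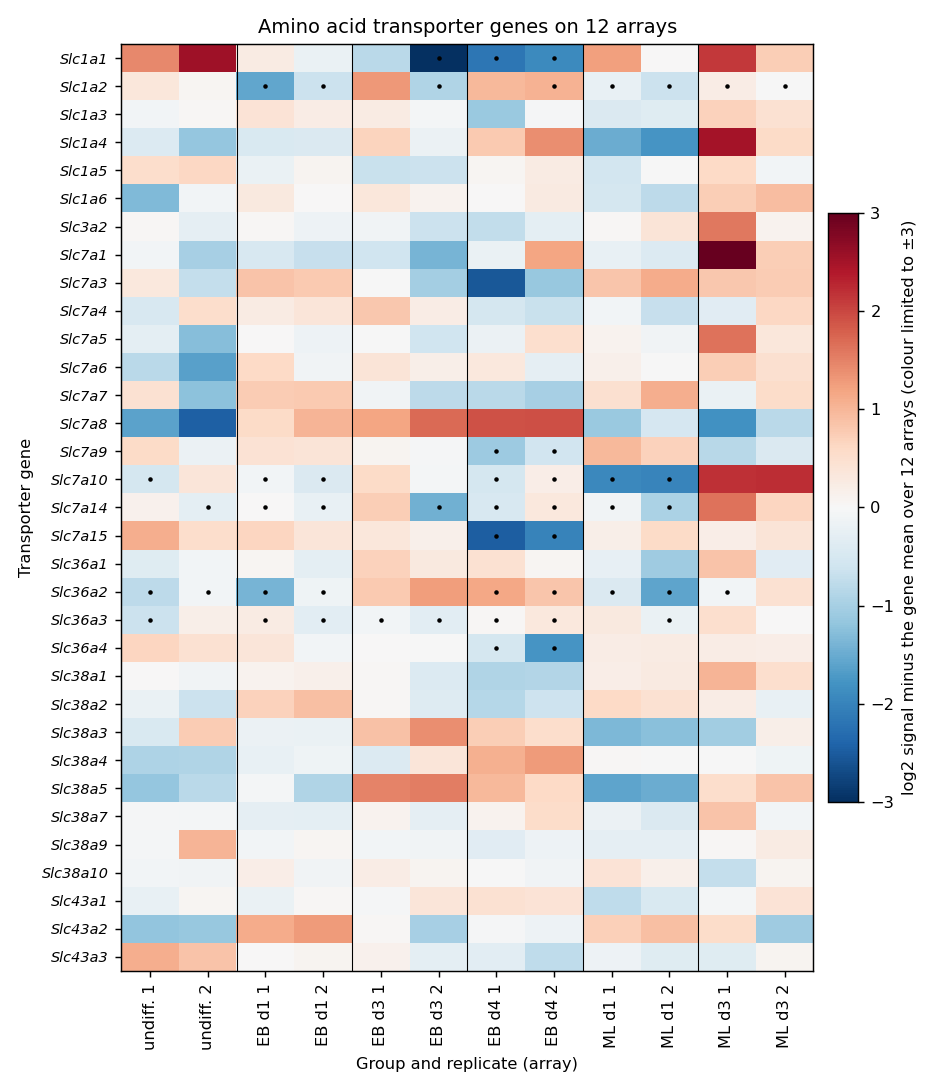
Each row is 1 of the 33 tested transporter genes and each column 1 of the 12 arrays; colour gives log2 signal minus the gene's mean over the 12 arrays, limited to 3 in either direction, and a black dot marks a signal not well above background. Slc7a8 is blue in undifferentiated and ML arrays and red in EB days 3 and 4, and Slc7a10 is dark red on both ML day 3 arrays.

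Members were called at about the rate of all genes in most comparisons. A gene was called where limma's adjusted p was under 0.05, and 17 members were called in at least 1 of 10 comparisons. Against undifferentiated cells, EB day 1 had 5 members called of 33, 4 higher and 1 lower (of all genes, 13.3% were called, 7.93% higher and 5.39% lower). ML day 1 had 6, 4 higher and 2 lower (17.8%, 11.4% and 6.38%). EB day 3 had 7, 4 higher and 3 lower (23.6%, 12.9% and 10.7%). ML day 3 had 10, 9 higher and 1 lower (23.4%, 12.6% and 10.8%). These 4 comparisons share the same 2 undifferentiated arrays. The share of members called on ML day 3 was thus 30.3%, but the count was 3 members without ML day 3 replicate 1, 12 without replicate 2 and 6 without undifferentiated replicate 2. The median change of the 33 members on ML day 3 was 0.56 on the log2 scale, against 0.03 for all genes, and on EB day 3 it was 0.12 against 0.05.

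Within a format, 1 member was called from EB day 1 to day 3 (5.38% of all genes) and 5 from ML day 1 to day 3, 4 higher and 1 lower (of all genes, 12.3% were called, 5.74% higher and 6.6% lower). From EB day 3 to day 4, 2 members were called, 1 higher and 1 lower (12.5%, 3.82% and 8.73%). Between formats, none was called on day 1 with limma, where 0.0665% of all genes were and 4 members had an unadjusted p under 0.05. No other tool was run, and limma called 0 under each alternative setting run. On day 3, 3 members differed between EB and ML, 1 higher and 2 lower in EB (3.24% of all genes, 1.57% higher and 1.66% lower), and the change from day 1 to day 3 itself differed between formats for 1 member (0.238%).

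**Figure D2:**
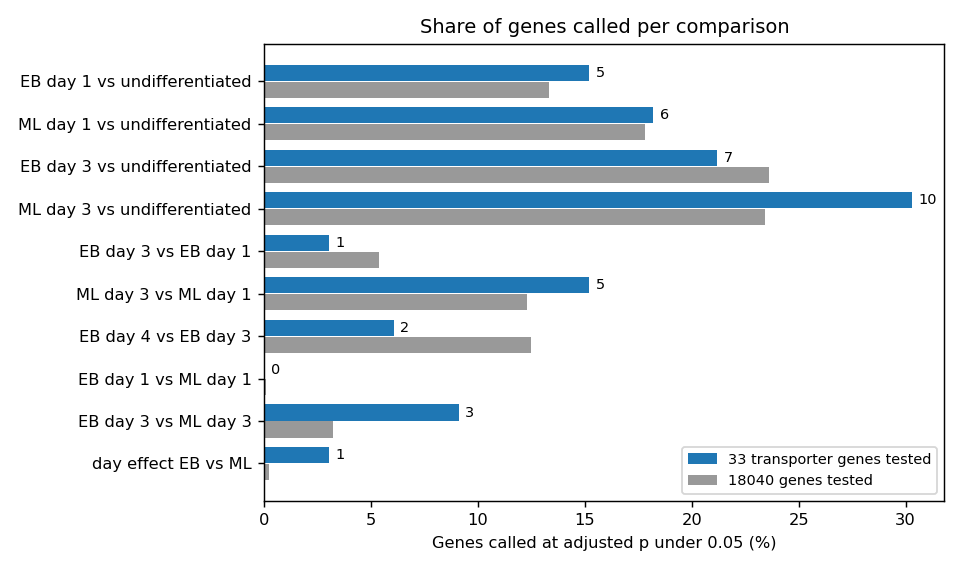
Bars give the percentage of genes called at an adjusted p under 0.05 in each of 10 comparisons, blue for the 33 tested transporter genes with their number beside the bar, grey for all 18040 tested genes. The blue bar is longest for ML day 3 against undifferentiated cells, at 30.3% against 23.4%.

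The heavy chain Slc3a2, which carries most light chains to the surface, passed no test. Its levels were 5.25 and 4.95 in undifferentiated cells, 5.24 and 5.07 on EB day 1, 5.11 and 4.58 on EB day 3, 4.48 and 4.93 on EB day 4, 5.25 and 5.60 on ML day 1, and 6.79 and 5.31 on ML day 3. The only array that stood clear of the rest was ML day 3 replicate 1. Against undifferentiated cells the ML day 3 difference was 0.95 ± 0.43 (SE; adjusted p = 0.138).

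Among the light chains, Slc7a8, an exchanger of large and small neutral amino acids, rose in embryoid bodies. Its levels (probe at chr14:55341137-55341196, mm9) were -3.36 and -4.20 in undifferentiated cells, -1.17 and -0.74 on EB day 1, -0.58 and -0.06 on EB day 3, 0.15 and 0.17 on EB day 4, -2.86 and -2.25 on ML day 1, and -3.58 and -2.57 on ML day 3. All 6 EB arrays lay above all ML and undifferentiated arrays, whereas ML day 3 overlapped undifferentiated cells. Against undifferentiated cells it was 7.06-fold higher on EB day 1 (log2 change 2.82 ± 0.41 SE, adjusted p = 0.00684) and 11-fold higher on EB day 3 (3.46 ± 0.41, adjusted p = 0.000905). On day 3 it was 6.75-fold higher in EB than in ML (2.75 ± 0.41, adjusted p = 0.0114). The EB day 3 rise was called whichever array was left out; the EB day 1 call ended without EB day 1 replicate 2 (adjusted p = 0.0548), and the EB to ML call ended without EB day 3 replicate 2 or ML day 3 replicate 1.

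Slc7a10, an exchanger of glycine, serine and other small neutral amino acids, was highest in monolayers on day 3. Its levels (chr7:35985868-35985927, mm9) were -2.95 and -2.93 on ML day 3, against -7.07 and -7.11 on ML day 1, neither of which was well above background. The undifferentiated arrays read -5.66 and -4.78, with only the latter well above background, and the 6 EB arrays read between -5.66 and -4.57, with only EB day 3 well above background on both. The ML day 3 arrays lay above all others. ML day 3 was at least 4.3-fold above ML day 1, taking for the dim group each array's lowest signal well above background (log2 change as measured 4.15 ± 0.35, adjusted p = 0.000751), and 4.86-fold above undifferentiated cells (2.28 ± 0.35, adjusted p = 0.00306). It was 3.84-fold lower on EB day 3 than on ML day 3 (-1.94 ± 0.35, adjusted p = 0.0222), a call that ended without EB day 3 replicate 2 or ML day 3 replicate 1. The lower value on ML day 1 than in undifferentiated cells was also called (-1.87 ± 0.35, adjusted p = 0.0129), but its size is not determined at signals near background, and the call ended without either ML day 1 array or undifferentiated replicate 2.

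Slc7a6, an exchanger of cationic against neutral amino acids, was called higher in all 4 groups tested against undifferentiated cells on its brightest probe. It stood at -0.48 and -1.31 in undifferentiated cells, 0.91 and 0.21 on EB day 1, 0.71 and 0.50 on EB day 3, 0.65 and 0.06 on EB day 4, 0.47 and 0.30 on ML day 1, and 1.05 and 0.81 on ML day 3. On this probe every differentiating array was above both undifferentiated arrays. The log2 changes were 1.45 ± 0.34 on EB day 1 (adjusted p = 0.0271), 1.28 ± 0.34 on ML day 1 (0.0343), 1.5 ± 0.34 on EB day 3 (0.0144) and 1.82 ± 0.34 on ML day 3 (0.00655). Only the ML day 3 call held whichever array was left out; the other 3 ended without undifferentiated replicate 2 or either array of the differentiating group. A second bright probe of the gene read 0.13 and -0.04 in undifferentiated cells, and on day 1 its mean was no higher (0.17 and -0.38 in EB, -0.05 and -0.18 in ML), so the 2 probes disagreed in direction there. With every probe tested separately by limma, the second changed by 0.17 ± 0.23 on EB day 3 (adjusted p = 0.615). On ML day 3 it changed by 0.74 ± 0.23 (adjusted p = 0.0467). With the mean of the gene's probes only the ML day 3 call held.

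Slc7a5, the main exchanger for leucine and other large neutral amino acids, was called on ML day 3 against undifferentiated cells, at 4.07 and 2.77 against 2.14 and 1.17 (log2 change 1.76 ± 0.47, adjusted p = 0.0255). The other 8 arrays lay between 1.84 and 2.95, so only ML day 3 replicate 1 stood above them. The call ended without that array or without undifferentiated replicate 2, and the change was 1.11 without the former.

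Slc7a9, the light chain that pairs with Slc3a1 to take up cystine and cationic amino acids, fell between ML day 1, at -2.73 and -3, and ML day 3, at -4.53 and -4.14. The groups did not overlap (2.77-fold lower, log2 change -1.47 ± 0.29, adjusted p = 0.014). The call ended without either ML day 1 array or ML day 3 replicate 1. Its known partner Slc3a1 was not well above background on any array.

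Slc7a7, the other cationic and neutral exchanger, passed no test, although its arrays ranged from 3.63 to 5.94. Its undifferentiated arrays were far apart, at 5.31 and 3.63. The day 1 arrays read 5.62 and 5.64 in EB and 5.34 and 5.94 in ML, for changes of 1.16 ± 0.51 (adjusted p = 0.149) and 1.17 ± 0.51 (0.135). Slc7a11, the cystine and glutamate exchanger whose promoter is printed above, had 4 probes, and its brightest readings were single arrays: -2.11 on undifferentiated replicate 2, -3.62 on EB day 4 replicate 1 and -3.30 on ML day 3 replicate 1 for the same probe, where no partner array was well above background. With 1 array of a group above background it was not tested.

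Slc7a15, a light chain of rodents, was 1 of 2 members called from EB day 3 to EB day 4. It read -3.86 and -4.05 on EB day 3 and -6.68 and -6.22 on EB day 4, where it was not well above background, and between -4.03 and -3.12 on the 8 other arrays. The fall was at least 1.25-fold (log2 change as measured -2.50 ± 0.27, adjusted p = 0.00224). Its probe was named in only the older annotation, and with another background correction the sign turned.

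Of the cationic amino acid transporters, which import arginine and lysine, Slc7a1 was called once and Slc7a3 never. Slc7a1 read 2.95 and 0.52 on ML day 3 and -0.31 and -1.21 in undifferentiated cells (log2 change 2.50 ± 0.73, adjusted p = 0.0369). The other 8 arrays lay between -1.62 and 0.97, so that ML day 3 replicate 2 was within their range and replicate 1 far above it. Without replicate 1 the change was 1.29, and the call ended, as it did without either undifferentiated array and with the mean of the gene's probes. With every probe tested separately by limma, its dimmer probe changed by 0.39 ± 0.72 on ML day 3 against undifferentiated cells (adjusted p = 0.721).

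Slc7a3 stayed well above background on all 12 arrays. It read 4.61 and 3.58 in undifferentiated cells, 5.16 and 5.08 on EB day 1, 4.30 and 3.28 on EB day 3, 1.77 and 3.17 on EB day 4, 5.13 and 5.41 on ML day 1, and 5.11 and 5.06 on ML day 3. The EB day 4 arrays were the lowest, and did not overlap EB day 3. That difference was -1.32 ± 0.50 (adjusted p = 0.116). Slc7a2 was above background on 1 array only, and the related Slc7a4 and Slc7a14 passed no test.

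**Figure D3:**
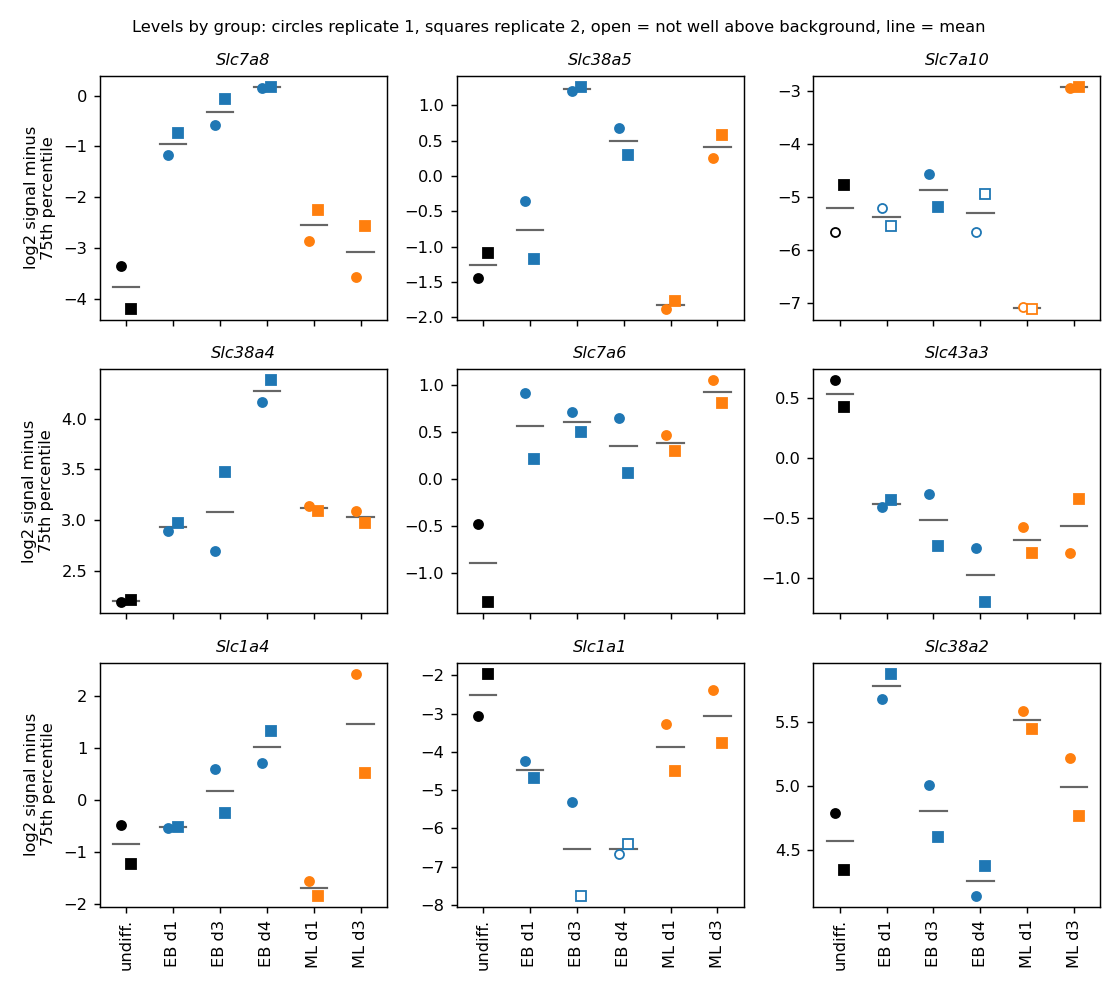
Log2 signal minus the array's 75th percentile for 9 transporter genes, by group; circles are replicate 1, squares replicate 2, open symbols are not well above background, and lines are group means. The vertical axes differ between genes. Slc7a8 sits higher in all EB arrays than elsewhere, Slc38a5 is raised on day 3 in both formats, and the 2 ML day 3 arrays of Slc1a4 are at 2.42 and 0.51.

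Of the glutamate carriers of the Slc1 family, Slc1a1 fell in embryoid bodies. It read -3.07 and -1.96 in undifferentiated cells, -4.25 and -4.69 on EB day 1, -5.32 and -7.75 on EB day 3, -6.66 and -6.40 on EB day 4, -3.26 and -4.50 on ML day 1, and -2.39 and -3.76 on ML day 3. The lowest 3 of these were not well above background. On EB day 3 it was below undifferentiated cells (log2 change -4.02 ± 0.79, adjusted p = 0.00784), and the call ended without undifferentiated replicate 2 (adjusted p = 0.0501). The EB day 3 value rests on 1 array above background, whose difference alone was -2.80. Against ML day 3 the adjusted p was just under the threshold of 0.05 (-3.46 ± 0.79). That call ended if EB day 3 replicate 2 or ML day 3 replicate 1 was left out, and when only the 8 arrays of the same scan day were fitted. A second probe was not well above background on either EB day 3 array. With every probe tested separately by limma, its EB day 3 change was -1.72 ± 0.93 against undifferentiated cells (adjusted p = 0.202). Against ML day 3 it was -1.14 ± 0.93 (adjusted p = 0.609).

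Slc1a6, another glutamate carrier, was higher on ML day 3, at 0.98 and 1.16, than on ML day 1, at -0.30 and -0.55, and than in undifferentiated cells, at -1.10 and 0.16. The changes were 1.49 ± 0.36 (adjusted p = 0.0297) and 1.54 ± 0.36 (adjusted p = 0.0162). The former call ended whichever of its 4 arrays was left out, and the latter without ML day 3 replicate 1 (adjusted p = 0.0508); the latter change ran from 0.90 to 2.17 with 1 array left out. Slc1a3, the glutamate carrier of radial glia and astrocytes, moved by 0.98 ± 0.32 from ML day 1 to day 3 and missed the threshold (adjusted p = 0.079). Another of its probes, named in only 1 version of the annotation, went the other way. It was well above background on all of these arrays, with means of -2.06 on ML day 1 and -2.67 on ML day 3. Slc1a2 was well above background on both arrays only in undifferentiated cells, at -4.94 and -5.22, and passed no test.

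Of the neutral exchangers in the family, Slc1a4, which carries alanine, serine and cysteine, had the largest fitted rise of the Slc1 genes from ML day 1 to day 3. It read -0.47 and -1.23 in undifferentiated cells, -0.53 and -0.51 on EB day 1, 0.60 and -0.24 on EB day 3, 0.71 and 1.32 on EB day 4, -1.56 and -1.83 on ML day 1, and 2.42 and 0.51 on ML day 3. ML day 3 was 8.91-fold above ML day 1 (3.16 ± 0.57, adjusted p = 0.00972) and 4.97-fold above undifferentiated cells (2.31 ± 0.57, adjusted p = 0.0188). The former change was 4.11 without ML day 3 replicate 2 and 2.20 without replicate 1, and its call ended without ML day 1 replicate 2. The latter ran from 1.36 to 3.27 with 1 array left out, and its call ended without ML day 3 replicate 1 or undifferentiated replicate 2. The other probe of the gene was called in the same direction in both comparisons.

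Slc1a5, a glutamine exchanger, fell on EB day 3. It read 1.77 and 1.86 in undifferentiated cells, 1.04 and 1.31 on EB day 1, 0.56 and 0.60 on EB day 3, 1.29 and 1.48 on EB day 4, 0.69 and 1.23 on ML day 1, and 1.83 and 1.16 on ML day 3. Both EB day 3 arrays were below all 10 others. The fall was 2.36-fold (-1.24 ± 0.27, adjusted p = 0.0124); the call ended without undifferentiated replicate 2 or either EB day 3 array, at adjusted p values up to 0.0594.

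In the Slc38 family, Slc38a5, a carrier of glutamine and other nitrogen-rich amino acids, was higher on day 3 than on day 1 in both formats. It read (chrX:7857226-7857285, mm9) -1.44 and -1.09 in undifferentiated cells, -0.35 and -1.18 on EB day 1, 1.2 and 1.26 on EB day 3, 0.68 and 0.30 on EB day 4, -1.88 and -1.77 on ML day 1, and 0.25 and 0.58 on ML day 3. All arrays of days 3 and 4 lay above all others. From day 1 to day 3 it rose 3.97-fold in EB (1.99 ± 0.29, adjusted p = 0.00879) and 4.72-fold in ML (2.24 ± 0.29, adjusted p = 0.00277). Against undifferentiated cells the rise was 5.62-fold on EB day 3 (2.49 ± 0.29, adjusted p = 0.0009) and 3.19-fold on ML day 3 (1.67 ± 0.29, adjusted p = 0.00505). The ML rise and both day 3 rises over undifferentiated cells were called whichever array was left out; the EB rise from day 1 ended without EB day 1 replicate 2 or EB day 3 replicate 2.

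System A, the sodium-driven uptake of small neutral amino acids, is carried by Slc38a1, Slc38a2 and Slc38a4. Slc38a2, the member known to respond to amino acid shortage, was raised on day 1 in both formats. It read 4.79 and 4.34 in undifferentiated cells, 5.68 and 5.88 on EB day 1, 5.01 and 4.60 on EB day 3, 4.14 and 4.37 on EB day 4, 5.59 and 5.45 on ML day 1, and 5.22 and 4.76 on ML day 3. The day 1 arrays lay above all others. The changes were 1.22 ± 0.25 on EB day 1 (adjusted p = 0.0194) and 0.96 ± 0.25 on ML day 1 (adjusted p = 0.0336), with the other 3 probes in the same direction but not called. Each call ended without undifferentiated replicate 2 or either of its day 1 arrays, and under quantile normalization (adjusted p up to 0.262 over the settings run).

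Slc38a4, known as an imprinted gene expressed from the paternal copy, gave opposite answers from its 2 probes on days 1 and 3. The brighter probe (chr15:96825482-96825541, mm9) read 2.19 and 2.21 in undifferentiated cells, 2.89 and 2.97 on EB day 1, 2.69 and 3.47 on EB day 3, 4.17 and 4.38 on EB day 4, 3.14 and 3.09 on ML day 1, and 3.09 and 2.97 on ML day 3. The other, whose listed position chr15:96843897-96846572 spans more than its own length and so crosses a splice junction, read 0.05 and 0.22, then -1.23 and -0.87, -1.83 and -1.04, 0.10 and 0.53, -1.05 and -0.60, and -1.13 and -0.63 in the same order. On days 1 and 3 the brighter probe was above and the other below its undifferentiated arrays. The brighter probe was called higher on ML day 1, EB day 3 and ML day 3 (0.91, 0.88 and 0.83, each ± 0.25; adjusted p = 0.0379, 0.0348 and 0.0432), and all 3 signs turned with the mean of the probes. With every probe tested separately, the other probe was called lower on EB day 3 (-1.58 ± 0.32, adjusted p = 0.0091) and ML day 3 (-1.02 ± 0.32, adjusted p = 0.0479). The ML calls ended whichever array was left out, and the EB call without EB day 3 replicate 2 or either undifferentiated array. From EB day 3 to day 4 both probes rose, by 1.2 ± 0.25 for the brighter (adjusted p = 0.0191), which ended without EB day 3 replicate 1 or either EB day 4 array.

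Slc38a1 was called higher on ML day 3, at 4.56 and 4.05 against 3.56 and 3.45 (0.80 ± 0.23, adjusted p = 0.0354), and its other 4 probes were called in the same direction. Those 4 also had higher means in both day 1 groups than in undifferentiated cells. For 1 of them the means were 1.15 in undifferentiated cells, 2.47 on EB day 1, 2.29 on ML day 1 and 2.69 on ML day 3. The call for the brightest probe ended without ML day 3 replicate 1 or either undifferentiated array. It also ended under quantile normalization, with the authors' deposited values and with no filter on dim probes. Fitting only the groups compared ended it too (limma, adjusted p up to 0.247 over the settings run). EB day 4 was the lowest group for that probe, at 2.65 and 2.67, whereas another of its probes had its highest mean there, at 2.72 and 3.09. The remaining tested Slc38 genes, Slc38a3, Slc38a7, Slc38a9 and Slc38a10, passed no test. Slc38a9 is the lysosomal carrier that signals arginine to mTORC1, and its brightest probe read between -0.36 and 1.00 on all 12 arrays. Its probes disagreed in direction. The brightest had means of 0.46 in undifferentiated cells and -0.11 on EB day 3. Another, well above background on all 12 arrays, had means of -1.14 and 0.16 there. That probe also had means of -1.18 on ML day 1 and 0.26 on ML day 3, against -0.29 and 0.13 for the brightest.

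None of the 4 Slc36 genes, proton-coupled carriers of small amino acids, passed a limma test in any comparison; 1 gene had an unadjusted p under 0.05 in each of 4 comparisons. Slc36a1, above background on all arrays, read between -2.64 and -0.71. Slc36a4 was well above background everywhere except EB day 4, and Slc36a2 and Slc36a3 were well above background on both arrays of 1 group each.

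The Slc43 family, facilitated carriers without ion coupling, moved in opposite directions. Slc43a2, a carrier of large neutral amino acids, was raised on day 1. It read -4.88 and -4.84 in undifferentiated cells, -2.60 and -2.43 on EB day 1, -3.68 and -4.71 on EB day 3, -3.75 and -3.85 on EB day 4, -2.98 and -2.81 on ML day 1, and -3.15 and -4.78 on ML day 3. The day 1 arrays lay above all others. The rises were 5.09-fold on EB day 1 (2.35 ± 0.48, adjusted p = 0.0185) and 3.91-fold on ML day 1 (1.97 ± 0.48, adjusted p = 0.0267). The EB call ended without undifferentiated replicate 2 or either EB day 1 array and the ML call whichever array was left out, and a dim other probe gave the opposite sign for ML. With normexp background the changes were 0.97 and 0.85, both still called. With the mean of the gene's probes they were 1.35 (adjusted p = 0.113) and 0.82 (adjusted p = 0.289), and neither was called.

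Slc43a3, a family member known to carry purine bases, fell in all 4 groups tested against undifferentiated cells. Undifferentiated arrays read 0.65 and 0.43, and the other 10 lay between -1.20 and -0.30, with no overlap. The falls were 1.89-fold on EB day 1 (-0.92 ± 0.26, adjusted p = 0.0449), 2.32-fold on ML day 1 (-1.22, 0.0171), 2.08-fold on EB day 3 (-1.06, 0.0178) and 2.15-fold on ML day 3 (-1.11, 0.0151). The EB day 1 call ended whichever array was left out, the ML day 1 call without undifferentiated replicate 2 or either ML day 1 array, the EB day 3 call without undifferentiated replicate 1 or EB day 3 replicate 2, and the ML day 3 call without undifferentiated replicate 1 or ML day 3 replicate 1, at adjusted p values up to 0.191. Slc43a1 read between -0.56 and 0.65 and passed no test.

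Several transporter results rest on the ML day 3 pair. The share of all tested genes at least 2-fold apart, 18.3% there, was 3.4% to 12% in the other groups; among members it was 9 of 33 (27.3%) on ML day 3 and 3.03% to 21.2% in the other groups. Of the 33 members, 19 were higher in replicate 1, with a median difference of 0.12, against -0.11 for all genes. Of 17 listed ATF4 targets outside the transporters, all 17 were higher in replicate 1, by a median of 1.91 on the log2 scale. Against the ML day 1 mean, the list's median was 3.16 in replicate 1 and 1.03 in replicate 2.

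Against the ML day 1 mean, the 33 members had a median of 0.66 in replicate 1 and 0.31 in replicate 2. Those at least 2-fold above it numbered 12 and 9, and those at least 2-fold below it 3 and 2. The matching shares of all genes were not counted. Some of these members, Slc7a10 and Slc7a14 among them, were not well above background on ML day 1. Slc1a4 was 4.11 above in replicate 1 and 2.20 in replicate 2, and Slc7a1 3.49 and 1.07. Slc7a5 was 1.63 and 0.33 above and Slc3a2 1.36 above and 0.12 below. Slc7a10, by contrast, was 4.14 and 4.16 above, Slc38a5 2.07 and 2.40, and Slc1a6 1.40 and 1.58, close to equal in both arrays. The part of this difference between arrays in the transporter results was not tested.

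**Figure D4:**
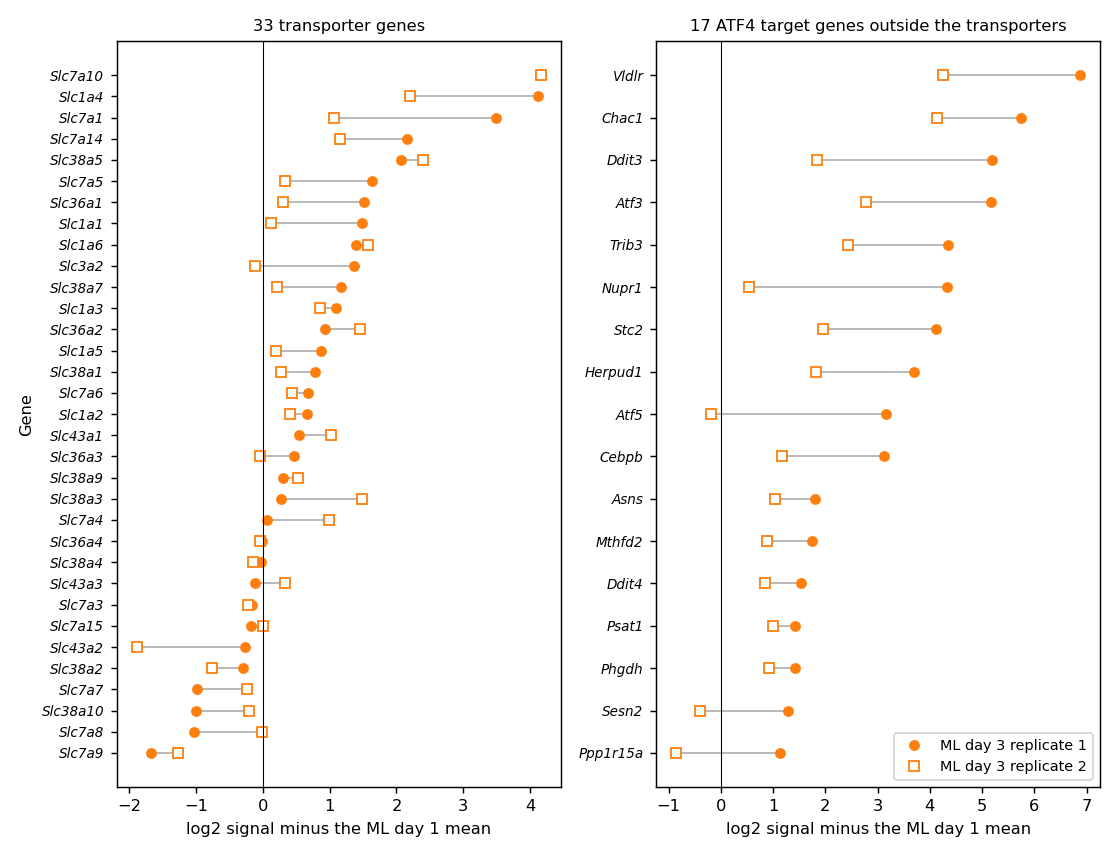
Log2 signal of each ML day 3 array minus the ML day 1 mean, filled circles for replicate 1 and open squares for replicate 2, for the 33 tested transporter genes (left) and 17 ATF4 target genes outside the transporters (right). All 17 ATF4 targets are further right in replicate 1, whereas Slc7a10 has both symbols at the same place.

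The ATF4 target list changed within monolayers. Of all genes, 5.74% were called higher and 6.6% lower from ML day 1 to day 3. On ML day 3 against undifferentiated cells, 12.6% were called higher and 10.8% lower. From ML day 1 to day 3, 12 of 17 rose and none fell (median 2.15, against -0.14 for all genes); without ML day 3 replicate 1, 4 rose with a median of 1.03, and without replicate 2, 16 rose. Vldlr, a lipoprotein receptor, Chac1, a glutathione-degrading enzyme, and the stress factors Atf3 and Ddit3 rose by 5.57, 4.94, 3.97 and 3.52 on the log2 scale (adjusted p = 0.00278, 0.0244, 0.0106 and 0.0382). In ML day 3 replicate 1 they stood 6.88, 5.75, 5.17 and 5.20 above the ML day 1 mean, and in replicate 2 they stood 4.25, 4.13, 2.77 and 1.85 above it. Their ML day 1 means of -3.71, 0.05, -1.47 and -2.20 were below the undifferentiated means of 0.44, 1.17, 0.07 and 0.39. Of these falls only that of Vldlr was called (-4.15 ± 0.73). In ML day 3 replicate 2 they read 0.54, 4.17, 1.30 and -0.36, so Ddit3 was there below its undifferentiated mean. Against undifferentiated cells, 6 of 17 were higher on ML day 3; without ML day 3 replicate 1 the count was 1 higher and 1 lower, and without replicate 2 it was 13 higher. In embryoid bodies 1 of 17 rose from day 1 to day 3 (5.38% of all genes were called), with a median of -0.01. That gene was Vldlr, which rose by 4.24 (limma, adjusted p = 0.0155), so its rise was not particular to monolayers. Its day 3 means were 1.83 in EB and 1.86 in ML, against -2.41 on EB day 1 and 0.44 in undifferentiated cells. From EB day 3 to day 4 the list median was 0.66, against -0.09 for all genes, and 1 of 17 was called higher.

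Amino acid enzymes moved in both directions, with 26 of 28 listed genes tested. Of all genes, 5.74% were called higher and 6.6% lower from ML day 1 to day 3. From ML day 1 to day 3, 4 rose and 1 fell, and none was called without ML day 3 replicate 1. Tdh, the threonine dehydrogenase on which mouse embryonic stem cells depend, fell 5.12-fold from EB day 1 to day 3 (-2.35 ± 0.54, adjusted p = 0.0386), 7.52-fold from EB day 3 to day 4 (-2.91 ± 0.54, adjusted p = 0.012) and 5.80-fold from ML day 1 to day 3 (-2.54 ± 0.54, adjusted p = 0.0183). On day 3, 5 enzymes were lower in EB than in ML and none higher (of all genes, 1.66% were lower and 1.57% higher). Cth, which makes cysteine, was 4.33-fold lower (-2.12 ± 0.26, adjusted p = 0.00483). Psat1 and Asns, which make serine and asparagine and are also on the ATF4 list, were 3.31-fold and 3.27-fold lower. Without ML day 3 replicate 1 the count was 1, and without replicate 2 it was 8. Glul, glutamine synthetase, rose 2.02-fold on EB day 1 (1.02 ± 0.28, adjusted p = 0.0462) and 2.34-fold on ML day 1 (1.23 ± 0.28, adjusted p = 0.0225).

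Genes of amino acid sensing and mTORC1 were not called by limma in changes from day to day. Of 31 tested, 0 were called from EB day 1 to day 3 (5.38% of all genes were called). From ML day 1 to day 3 the count was 0 (12.3%), and from EB day 3 to day 4 it was 0 (12.5%). In these comparisons 5, 5 and 4 had an unadjusted p under 0.05. Without ML day 3 replicate 2, however, some were called from ML day 1 to day 3. Calls rose in the other gene lists too. The median change of the sensing genes was then -0.16, against -0.1 with both arrays. Against undifferentiated cells, 3 rose on EB day 1 (13.3% of all genes were called), 3 rose and 2 fell on ML day 1 (17.8%), 4 rose and 2 fell on EB day 3 (23.6%), and 3 rose and 3 fell on ML day 3 (23.4%). More were called on ML day 3 without ML day 3 replicate 2, and fewer without replicate 1. The median of the sensing genes was 0.16 and 0.1 in those fits, against 0.08 with both arrays. Rragd, a Rag GTPase that recruits mTORC1 to lysosomes, rose in all 4, by 1.72, 1.38, 1.66 and 1.26 on the log2 scale, and Rptor, the mTORC1 scaffold, by 0.93, 1.03, 1.30 and 1.08. Tfeb, a transcription factor of lysosome genes, fell by 1.12 on ML day 1, 1.90 on EB day 3 and 1.44 on ML day 3.

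Of the other amino acid transporters, 21 of 30 listed genes were tested. Of all genes, 5.74% were called higher and 6.6% lower from ML day 1 to day 3. From ML day 1 to day 3, 2 rose and 2 fell: the glycine carrier Slc6a9 rose 9.64-fold (3.27 ± 0.56, adjusted p = 0.00776), with arrays at 4.48 and 2.70 on ML day 3, the aromatic amino acid carrier Slc16a10 rose 2.72-fold (1.44 ± 0.31, adjusted p = 0.0198), the mitochondrial aspartate and glutamate carrier Slc25a12 fell 6.01-fold (-2.59 ± 0.27, adjusted p = 0.00108), and the vesicular glutamate carrier Slc17a7 fell (-0.83 ± 0.23, adjusted p = 0.0464). Slc17a7 was well above background on 1 ML day 1 array and on no ML day 3 array, so the size of its fall is not determined. Without ML day 3 replicate 2 the count was 6 higher and 6 lower, and without replicate 1 it was 2 higher and 1 lower. Slc25a12 also fell 3.93-fold from EB day 1 to day 3 (-1.97 ± 0.27, adjusted p = 0.00622). Slc6a15, a carrier of branched neutral amino acids, was higher than in undifferentiated cells on EB day 1 (1.35), ML day 1 (1.55) and ML day 3 (2.41), and was lower on EB day 3 than on ML day 3 (-1.81 ± 0.36, adjusted p = 0.0311). Slc6a6, the taurine carrier, fell 2.43-fold on ML day 1 (-1.28 ± 0.26, adjusted p = 0.0166).

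Markers of other cells moved with some of these groups. Visceral and primitive endoderm markers (8 of 10 tested, with Ttr and Apoa1 too dim) had a summed linear level, in units of the array's 75th percentile, of 1.88 to 2.48 in undifferentiated cells, 1.1 to 1.36 on EB day 1, 12.8 to 21.0 on EB day 3, 22.6 to 22.7 on EB day 4, 1.25 to 1.26 on ML day 1 and 2.03 to 2.41 on ML day 3. They were thus high in the EB day 3 and day 4 arrays, where Slc7a8 was highest and Slc1a1 lowest. Slc7a8 was already called higher on EB day 1 (2.82 ± 0.41), where the marker sum was below that of undifferentiated cells. Slc1a1 had a mean of -4.47 on EB day 1, against -2.52 in undifferentiated cells, and was not called there. The sum was led by Sox17 and Gata6, at 3.22 and 2.57 on EB day 3, and does not stand for the whole list: 3 of the 8 were called higher on EB day 3 than in undifferentiated cells and none lower, with a list median of -0.12. Of all genes, 12.9% were called higher and 10.7% lower there. Afp and Dab2 read -5.18 and -1.43 on EB day 3, against -3.77 and -0.70 in undifferentiated cells. Feeder fibroblast markers (15 of 17 tested, with Postn and Lum too dim) summed to 93.7 and 223 in the undifferentiated arrays and 40.2 to 98.4 elsewhere. S100a4 read 6.78 and 4.55 on the undifferentiated arrays and was a large part of the higher sum. Of the 15, 6, 3, 8 and 6 were lower than in undifferentiated cells on EB day 1, ML day 1, EB day 3 and ML day 3. Of all genes, 5.39%, 6.38%, 10.7% and 10.8% were called lower there. On ML day 1 and ML day 3, 1 and 2 of the markers were higher (11.4% and 12.6% of all genes). Slc43a3 was called lower in these 4 groups too. Embryonic stem cell markers summed to 209 to 234 in undifferentiated cells and 32.3 to 153 in the other groups. The EB day 4 sum of 48.3 to 56.6 was led by Tbx3, at 5.43 and 5.01 there, and does not stand for the whole list. Tbx3 was called higher than on EB day 3 (3.19 ± 0.87), while 7 of the 10 were called lower. Of all genes, 3.82% were higher and 8.73% lower from EB day 3 to day 4. The part of these cells in the transporter results was not tested, and in bulk RNA more cells of a type and more RNA per cell cannot be told apart.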

How the data were processed

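Total RNA was labelled with Cy3 and hybridised to 12 single-colour Agilent arrays, per the labels' protocols. The deposited scanner files hold spot intensity, background-subtracted by Agilent Feature Extraction, and flags (other values), per the file headers; the submitters' processing notes give version 9.5.1.1 and the headers 10.5.1.1, 10.7.3.1 and 10.7.1.1. The authors' deposited value table, also intensity, served as an alternative.

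Values were log2 of processed intensity minus the array's 75th percentile. Outlier-flagged spots were left out (51 to 172 per array), replicate spots averaged, and probes kept if well above background on both arrays of 1 group (26176). For genes with several probes, that of highest mean level was taken. Limma 3.58.1 (R 4.3.3) fitted 6 group means to 12 arrays (6 residual and 3.19 prior degrees of freedom) and tested 10 comparisons, two-sided, with Benjamini-Hochberg adjustment over 18040 genes; the script was tested on simulated data. The number of arrays limits the precision, and signal over background limits it for dim probes. Symbols came from RefSeq accessions for 24844 probes. Probe positions are mm9, as in the files; exon annotation of that build was not used here.

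Members and gene lists were chosen with earlier results of these data known. Named are all called members, the main carriers of each family, and up to 4 called genes of each list and comparison.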

Additional observations from a re-analysis of the deposited data

Results flagged for a closer look

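The change of Slc7a10 from day 1 to day 3 differed between the culture formats: the EB change minus the ML change was -3.64 ± 0.50 on the log2 scale (limma interaction term, adjusted p = 0.0289), with both ML day 3 arrays above all others. Neither day 1 group was well above background, so the size of this difference is not determined. The call ended without either EB day 1 array, either ML day 1 array, EB day 3 replicate 2 or ML day 3 replicate 1 (differences of -3.95 to -3.33, adjusted p up to 0.135), and with another background correction or no filter on dim probes.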

How the results depend on the processing

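Of the 40 member calls, 8 held whichever array was left out. Under the other settings that tested them 7 held, 5 of these also with any array left out, but the strict filter on dim probes left 9 calls untested, those of Slc7a10 among them; of the calls it tested, 5 held under every other setting and 3 of these also with any array left out. Slc38a4 changed sign with the mean of a gene's probes, to -0.03 on ML day 1, -0.35 on EB day 3 and -0.10 on ML day 3 against undifferentiated cells, and Slc7a15 (EB day 4 against day 3) with normexp background, to 0.19; the cause was not tested. Fitting only the groups compared, which leaves fewer arrays, gave 2, 1, 3 and 1 members called on EB day 1, ML day 1, EB day 3 and ML day 3 against undifferentiated cells, 0 from EB day 1 to 3, 2 from ML day 1 to 3, 1 from EB day 3 to 4 and 0 between formats on day 3. With the mean of a gene's probes, 3 members were called on EB day 1, 2 on ML day 1 and 2 from EB day 1 to 3. Normexp background gave 2 from EB day 1 to 3, 8 from ML day 1 to 3, 4 from EB day 3 to 4 and 0 for the difference between formats in the day effect. No filter on dim probes gave 8 from EB day 3 to 4 and 0 for that difference, and the strict filter 3 from ML day 1 to 3, 1 from EB day 3 to 4, 1 between formats on day 3 and 0 for that difference. A trended variance prior gave 2 from EB day 1 to 3 and 5 between formats on day 3. With 1 array left out, counts against undifferentiated cells ran from 0 to 6 on EB day 1, 0 to 9 on ML day 1, 3 to 6 on EB day 3 and 3 to 12 on ML day 3; within formats from 0 to 2 (EB day 1 to 3), 2 to 12 (ML) and 1 to 2 (EB day 3 to 4); between formats from 0 to 11 on day 3 and 0 to 2 for the day effect, with 0 throughout on day 1. The lone array of a group is then assumed to vary like the others. Over all genes, fitting only the groups compared lowered the counts of calls from 2403 to 736 (EB day 1), 3215 to 246 (ML day 1), 4260 to 1646 (EB day 3) and 4224 to 965 (ML day 3), and no filter on dim probes raised that from EB day 3 to 4 from 2263 to 7768. Replicate numbers did not pair the samples (correlations of replicate differences between groups from -0.154 to 0.227); with the replicate block, 39 of 40 calls were kept (Slc43a3 on EB day 1 was not, at adjusted p = 0.0518), 4 members were called on EB day 1 and 7 on ML day 1. The fit to the 8 arrays of 1 scan day and that to every probe were chosen after seeing the data. Signals near background limit what can be said of Slc7a10, Slc7a15, Slc1a1 and the 8 untested genes.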
